A study of Mus musculus with 9 samples.

Results

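The 10 genes described here were the D-type cyclins Ccnd1, Ccnd2 and Ccnd3, the E-type cyclins Ccne1 and Ccne2, and the cyclin-dependent kinase (CDK) inhibitors Cdkn1a, Cdkn1b, Cdkn2a, Cdkn2b and Cdkn2c, which together set the passage of a cell from G1 into S phase. They were taken by symbol, as every probe set that the array's annotation pairs with one of these genes alone. This gave 23 probe sets for 10 genes, of 45037 probe sets without the manufacturer's controls and 18193 genes with a probe set of their own. RNA of E14 mouse cells was hybridized to 9 Affymetrix Mouse 430 2.0 arrays. These were 5 of embryoid bodies, aggregates in which embryonic stem cells (ESCs) differentiate (labelled 1, 3, 5, 7 and 9), and 4 of ESCs (labelled 2, 6, 8 and 10). Both groups came from E14 cells, and no treatment was named for either. Neither the age of the embryoid bodies nor their culture was given in the sources used here. The ESC samples were called biological replicates in the methods, while nothing states that the embryoid bodies came from separate cultures, so P values measure only the spread between these samples.

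In most dividing cells, D-type cyclins activate Cdk4 and Cdk6, and E-type cyclins activate Cdk2. Both complexes phosphorylate the retinoblastoma protein, which frees E2F factors to start the genes of S phase. Inhibitors of the Ink4 family, Cdkn2a (p16), Cdkn2b (p15) and Cdkn2c (p18), bind Cdk4 and Cdk6, and those of the Cip/Kip family, Cdkn1a (p21) and Cdkn1b (p27), bind the cyclin and CDK complexes. Mouse ESCs are known for a short G1 phase with high cyclin E activity and little cyclin D activity, and G1 lengthens as they differentiate.

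The RefSeq promoter windows used here matched 7 of the 10 genes, all but Ccnd1, Ccnd2 and Ccne2, and each ran from 250 bases before to 50 after a transcription start. The windows of Ccne1, the only member that fell in embryoid bodies, and of Cdkn2b and Cdkn1a, the CDK inhibitors that rose, are shown here because the results below turn on these genes. They are given 5′ to 3′ on the strand of the gene (build GRCm38.p6), with each GGGCGG in capitals, read on both strands, so that CCGCCC also counts. GGGCGG is the core of the GC box, to which Sp1 factors bind.

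Ccne1, chr7:38107441-38107740, minus strand: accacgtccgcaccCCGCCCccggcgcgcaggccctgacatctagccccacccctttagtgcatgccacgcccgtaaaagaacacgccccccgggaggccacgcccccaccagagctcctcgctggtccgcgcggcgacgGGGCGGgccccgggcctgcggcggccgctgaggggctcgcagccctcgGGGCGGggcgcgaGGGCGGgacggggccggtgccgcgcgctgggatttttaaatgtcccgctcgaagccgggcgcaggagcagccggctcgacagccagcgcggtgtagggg
Cdkn2b, chr4:89310983-89311282, minus strand: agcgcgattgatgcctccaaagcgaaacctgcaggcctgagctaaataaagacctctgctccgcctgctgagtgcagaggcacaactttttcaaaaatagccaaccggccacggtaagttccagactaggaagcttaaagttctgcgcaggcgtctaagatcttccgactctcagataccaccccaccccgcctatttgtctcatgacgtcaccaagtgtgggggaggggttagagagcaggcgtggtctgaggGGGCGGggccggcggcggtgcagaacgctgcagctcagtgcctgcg
Cdkn1a, chr17:29093519-29093818, plus strand, the downstream of 2 annotated starts: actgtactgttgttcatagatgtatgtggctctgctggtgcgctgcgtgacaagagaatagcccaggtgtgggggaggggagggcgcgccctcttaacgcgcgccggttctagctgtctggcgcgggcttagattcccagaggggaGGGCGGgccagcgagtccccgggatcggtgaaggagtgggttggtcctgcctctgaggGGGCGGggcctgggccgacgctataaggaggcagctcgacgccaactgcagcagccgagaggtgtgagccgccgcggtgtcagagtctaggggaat

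The Ccne1 window held 4 copies of GGGCGG and 41 CpG dinucleotides. The Cdkn2b window held 1 copy and 18 CpGs, and the Cdkn1a window 2 copies and 23 CpGs, while the window at the upstream Cdkn1a start held 0 copies and 2 CpGs. Windows of genes that were not called also held several copies, with 4 copies and 33 CpGs at one start of Cdkn2c and 3 copies and 45 CpGs at one start of Cdkn2a. In all, 9 of the 11 member windows held GGGCGG. Among all 32851 windows of this length, 35.7% held GGGCGG on either strand and the median was 7 CpGs. A pair of E2F-type motifs, TTTCGCGC and TTTGGCGC, was searched on both strands. They stood in 0 of the 11 member windows, and 0.813% of all windows held at least 1 of them, which says only that these letters are not in these windows.

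Values are log2 of the GCRMA intensities, a scale on which 1 unit is 2-fold. The lowest value on any array was 1.09 and the highest 15.19. Values under log2 4 are described as near the floor, and they made up 49.1% to 49.9% of every array. Levels of different probe sets also depend on how well their probes bind, so they are not set against each other. Markers followed the labels of the groups. Of 12 pluripotency genes, 11 were lower in embryoid bodies by the test below, and of 18 genes of heart, blood, endoderm and other cell types of embryoid bodies, 11 were higher and 1 lower, with the endothelial gene Pecam1 near the floor in both groups. Arrays stood apart by label number as well. Pairs of embryoid body arrays correlated at Pearson r = 0.9983 to 0.9986 within the numbers 1 to 6 or 7 to 10 and at 0.9966 to 0.9975 across them, and pairs of ESC arrays at 0.9976 to 0.9978 within and 0.9953 to 0.9958 across. The labels do not say what the numbers stand for, and each range holds both groups, so the main differences are also given within each range. Fewer cells of a type and less RNA per cell cannot be told apart on these arrays.

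Embryoid bodies and ESCs were compared by limma, with Benjamini-Hochberg adjustment over all 45037 probe sets, and a probe set was called at an adjusted p under 0.05. Of the 23 member probe sets, 11 were called higher in embryoid bodies and 2 lower, against 10.5% and 10.6% of all probe sets (21.1% in both directions together). Ccnd2 alone gave 7 of the 11, and the shares of all probe sets take in many near the floor. Among the 22766 probe sets with a mean log2 of 4 or more, fitted alone, 5047 were called higher and 4957 lower. The members called there were again 11 and 2. The share of all probe sets called lower depended on the setting. In the main fit 4778 were called lower, against 12735 without embryoid body array 9, 12834 with array weights and 7272 with median centring. The groups did not overlap on 13 member probe sets, 7 of them of Ccnd2, against 26.3% of all, those near the floor included. By gene, with each gene represented by its probe set of the highest mean over the 9 arrays, Ccnd2, Ccnd3, Cdkn1a and Cdkn2b were called higher and Ccne1 lower, against 15.7% and 14.7% of 18193 genes (30.4% together). The remaining genes, Ccnd1, Ccne2, Cdkn1b, Cdkn2a and Cdkn2c, were not called. The median difference was 0.43 over the 10 genes and -0.04 over all genes.

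**Figure D1:**
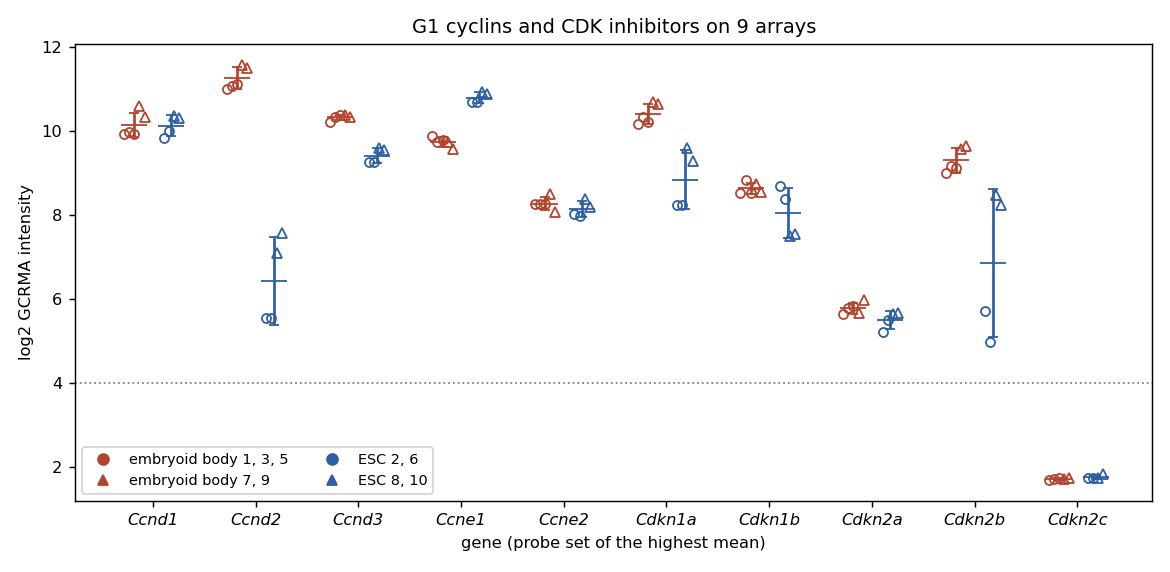
Log2 GCRMA intensity (vertical axis) of the 10 genes, each by its probe set of the highest mean (horizontal axis), on 5 embryoid body arrays (left of each pair) and 4 ESC arrays (right). Open symbols are arrays, circles for labels 1 to 6 and triangles for 7 to 10, horizontal marks and bars are means and SD, and the dotted line is log2 4. Ccnd2, Ccnd3, Cdkn1a and Cdkn2b lie higher in every embryoid body array than in any ESC array, Ccne1 lies lower, and Cdkn2c stays near the floor.

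Among the D-type cyclins, Ccnd2 changed most. On its probe set of the highest mean (1416122_at), Ccnd2 read 11.00, 11.07, 11.13, 11.58 and 11.50 on embryoid body arrays 1, 3, 5, 7 and 9, against 5.54, 5.54, 7.09 and 7.56 on ESC arrays 2, 6, 8 and 10 (values of other genes follow the same order). Every embryoid body array lay more than 3 log2 units above the highest ESC array. The mean was 11.26 ± 0.27 (SD, n = 5) in embryoid bodies and 6.43 ± 1.05 (SD, n = 4) in ESCs, a difference of 4.82 ± 0.43 (SE) or 28.3-fold (95% interval 14.5 to 55.3; adjusted p = 3.49e-05). ESC arrays 8 and 10 were both above arrays 2 and 6.

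All 7 probe sets of Ccnd2 were called higher, by unequal amounts. Besides 1416122_at, the probe sets 1455956_x_at, 1430127_a_at, 1448229_s_at and 1434745_at differed by 3.57, 4.57, 4.52 and 6.16. The probe sets 1416123_at and 1416124_at differed by only 0.91 ± 0.10 (SE) and 1.23 ± 0.23 (adjusted p = 1.53e-04 and 0.00398). The largest value, for 1434745_at, rests on ESC arrays 2 and 6, which both read 2.54, near the floor, while ESC arrays 8 and 10 read 7.07 and 7.08 and the embryoid body arrays 10.63 to 11.36. A fold for that probe set therefore depends on how low values are treated, and with 16 added to each intensity before the log its difference was smaller, as the closing section gives. On 1416123_at the ESC arrays lay between 6.76 and 7.0, with no gap between arrays 8 and 10 and arrays 2 and 6. Probe sets whose names end in _a_at match several transcripts of a gene, and those in _s_at and _x_at can also match other genes. So 1448229_s_at and 1455956_x_at are less specific to Ccnd2 than the others.

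**Figure D2:**
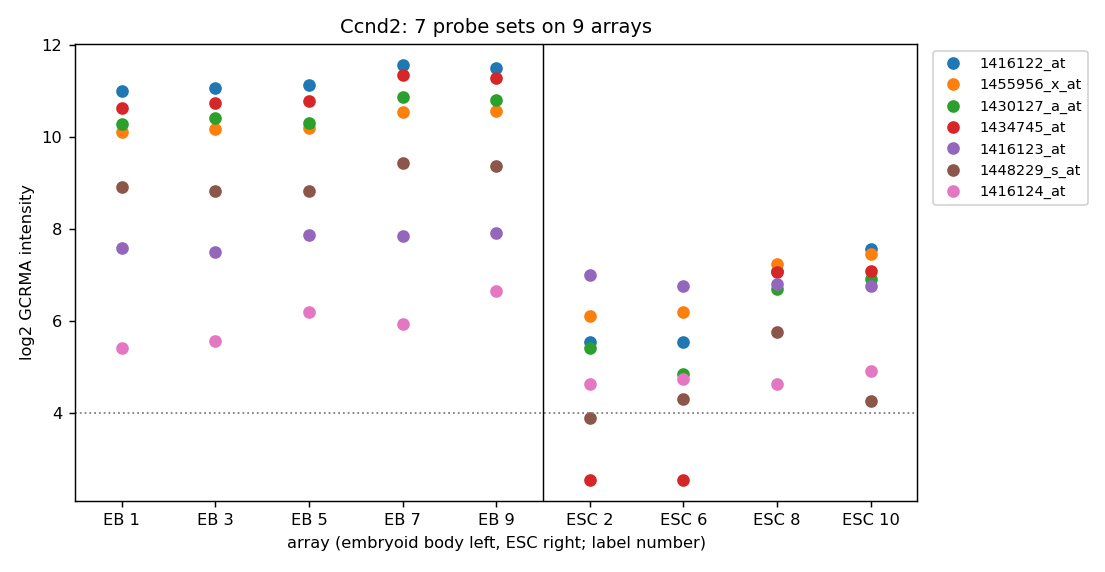
Log2 GCRMA intensity (vertical axis) of the 7 Ccnd2 probe sets (colours) on each array (horizontal axis, embryoid body arrays left and ESC arrays right of the line), with the dotted line at log2 4. All 7 lie higher in embryoid bodies, and 1434745_at reads 2.54 on ESC arrays 2 and 6 but 7.07 and 7.08 on ESC arrays 8 and 10.

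Ccnd3 rose by a smaller amount. Its probe set 1415907_at read 10.22, 10.33, 10.38, 10.38 and 10.33 on embryoid body arrays, against 9.25, 9.26, 9.60 and 9.54 on ESC arrays. The groups did not overlap, and the difference was 0.92 ± 0.08 (SE) or 1.89-fold (95% interval 1.66 to 2.15; adjusted p = 3.86e-05). ESC arrays 8 and 10 lay 0.31 above arrays 2 and 6 in the mean, and the difference was 1.06 in arrays 1 to 6 and 0.79 in arrays 7 to 10. The other 2 Ccnd3 probe sets lay near the floor on every array, between 2.44 and 2.79, and were not called.

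Ccnd1, the D-type cyclin best known as a target of growth factor signals, showed no common direction. Its probe set 1417420_at read 9.92, 9.98, 9.94, 10.59 and 10.33 in embryoid bodies and 9.84, 9.99, 10.37 and 10.31 in ESCs. The groups overlapped, and the difference was 0.03 ± 0.17 (SE; 95% interval -0.35 to 0.40, adjusted p = 0.905). The probe sets 1448698_at and 1417419_at differed by 0.34 (95% interval -0.17 to 0.85) and -0.35 (-0.78 to 0.08), which were not called (adjusted p = 0.225 and 0.154). All 3 read higher on embryoid body arrays 7 and 9 than on 1, 3 and 5, and higher on ESC arrays 8 and 10 than on 2 and 6. With the range of label numbers as a block, 1448698_at was called higher in embryoid bodies, by 0.41 (adjusted p = 1.80e-04), and 1417419_at lower, by -0.30 (adjusted p = 0.025), so the probe sets of Ccnd1 disagreed in direction.

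The D-type cyclins also differed from each other in how much they changed. For 8 pairs of genes within a family, the difference of their log2 values on each array was compared between groups by a two-sided exact permutation test over all assignments of arrays to groups of these sizes, which cannot give a p below 0.00794. Such a test asks whether both genes changed unequally, not which has the higher level. The change of Ccnd2 exceeded that of Ccnd1 by 4.8 ± 0.36 (SE) and that of Ccnd3 by 3.91 ± 0.40, and the change of Ccnd3 exceeded that of Ccnd1 by 0.89 ± 0.14 (exact p = 0.00794 for each, 0.00907 after adjustment over the 8 pairs). In all 3 pairs, each of the 5 embryoid body arrays lay above all 4 ESC arrays. With the mean over all probe sets of a gene, Ccnd3 and Ccnd1 were no longer told apart (difference of changes 0.28, adjusted exact p = 0.159), in a mean that takes in the 2 Ccnd3 probe sets near the floor.

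Ccne1 was the only member that fell. Its probe set of the highest mean, 1441910_x_at, can by its ending also match other genes. This probe set read 9.88, 9.75, 9.78, 9.73 and 9.57 on embryoid body arrays, against 10.69, 10.68, 10.94 and 10.88 on ESC arrays. The plain probe set 1416492_at read 8.62 to 8.81 in embryoid bodies and 10.16 to 10.71 in ESCs. Neither overlapped between groups, and the spread within each group was small beside the gap. The differences were -1.05 ± 0.08 (SE; adjusted p = 1.25e-05) and -1.73 ± 0.11 (adjusted p = 5.31e-06), so that the level in ESCs was 2.07 times and 3.32 times that in embryoid bodies (95% intervals 1.83 to 2.34 and 2.79 to 3.96). Both differences were somewhat larger in arrays 7 to 10 (-1.26 and -1.95) than in arrays 1 to 6 (-0.88 and -1.51).

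Ccne2, whose protein activates the same kinase, did not follow Ccne1. Its only probe set, 1422535_at, read 8.27, 8.25, 8.25, 8.51 and 8.08 in embryoid bodies and 8.03, 7.98, 8.38 and 8.18 in ESCs. These ranges overlapped, with a difference of 0.13 ± 0.10 (SE; 95% interval -0.11 to 0.36, adjusted p = 0.32). In arrays 1 to 6 alone Ccne2 was called higher, by 0.25 (adjusted p = 0.0349), while in arrays 7 to 10 it differed by 0.02. The interval over all 9 arrays excludes a fall of the size seen for Ccne1. The change of Ccne2 exceeded that of Ccne1 by 1.18 ± 0.08 (SE; exact p = 0.00794, 0.00907 after adjustment over the 8 pairs).

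Among the Cip/Kip inhibitors, Cdkn1a, the p21 gene that p53 and TGF-β signals are known to induce, rose on both of its probe sets. On 1424638_at it read 10.17, 10.33, 10.22, 10.69 and 10.64 in embryoid bodies, against 8.24, 8.24, 9.59 and 9.28 in ESCs. The groups did not overlap, but ESC arrays 8 and 10 lay much nearer to the embryoid bodies than ESC arrays 2 and 6. The difference was 1.58 ± 0.29 (SE) or 2.98-fold (95% interval 1.88 to 4.73; adjusted p = 0.00377). On 1421679_a_at it was 1.45 ± 0.25 or 2.73-fold (adjusted p = 0.00206), with 5.83 to 6.80 in embryoid bodies and 4.24 to 5.27 in ESCs. In arrays 1 to 6 alone that probe set differed by 1.39 but was not called (adjusted p = 0.0594).

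Cdkn1b, the p27 gene, was not called. On 1434045_at it read 8.53, 8.84, 8.53, 8.73 and 8.54 in embryoid bodies and 8.70, 8.39, 7.5 and 7.55 in ESCs. Embryoid bodies were close together, while ESC arrays 8 and 10 were low and ESC arrays 2 and 6 lay among the embryoid bodies. The difference was 0.60 ± 0.24 (SE; 95% interval 0.04 to 1.15, adjusted p = 0.0883). It was 0.09 in arrays 1 to 6 (adjusted p = 0.653) and 1.11 in arrays 7 to 10 (adjusted p = 0.00403), and it was called without ESC array 2, at 0.82 (adjusted p = 0.0226). The second probe set, 1419497_at, read 3.91 to 4.20 in embryoid bodies and 4.02 to 4.06 in ESCs, about the floor. The changes of Cdkn1a and Cdkn1b differed by 0.98 ± 0.58 (SE; exact p = 0.175, also after adjustment over the 8 pairs), and by 1.22 with the mean over each gene's probe sets (adjusted exact p = 0.00907). By number range they differed by 1.92 in arrays 1 to 6 and by 0.13 in arrays 7 to 10.

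Among the Ink4 inhibitors, Cdkn2b, the p15 gene that TGF-β is known to induce, rose by the most. It read 9.0, 9.17, 9.13, 9.58 and 9.64 on embryoid body arrays, against 5.72, 4.98, 8.48 and 8.23 on ESC arrays. The groups did not overlap, but the ESC arrays fell into a low pair and a high pair, and arrays 8 and 10 were within about 1 unit of the lowest embryoid body array. The mean was 9.30 ± 0.29 (SD, n = 5) in embryoid bodies and 6.85 ± 1.76 (SD, n = 4) in ESCs, a difference of 2.45 ± 0.70 (SE) or 5.48-fold (95% interval 1.83 to 16.4; adjusted p = 0.0347). This call was lost when ESC array 2 (difference 2.08, adjusted p = 0.0909), ESC array 6 (1.83, 0.065) or embryoid body array 1, 3, 5 or 7 was left out (2.39 to 2.53, adjusted p = 0.0634 to 0.0767). Within arrays 1 to 6 the difference was 3.75 (adjusted p = 5.07e-04), within arrays 7 to 10 it was 1.26 (adjusted p = 0.00386), and with the number range as a block it was 2.62 (adjusted p = 0.00331).

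Cdkn2a, which lies next to Cdkn2b and encodes p16 and, from another first exon and reading frame, p19Arf, was not called. Its only probe set, 1450140_a_at, read 5.64, 5.77, 5.82, 5.67 and 5.96 in embryoid bodies and 5.22, 5.49, 5.64 and 5.67 in ESCs. The groups overlapped, and the difference was 0.27 ± 0.10 (SE; 95% interval 0.03 to 0.51, adjusted p = 0.0825). It was 0.39 in arrays 1 to 6 and 0.16 in arrays 7 to 10, and with array weights it was called, at 0.34 (adjusted p = 0.028). The table of values does not tell the p16 and p19Arf transcripts apart. Cdkn2c, the p18 gene, read 1.68 to 1.73 in embryoid bodies and 1.73 to 1.83 in ESCs, near the lowest values of the arrays, so its level was not measurable here (difference -0.05, adjusted p = 0.108). The change of Cdkn2b exceeded that of Cdkn2a by 2.18 ± 0.72 (SE; exact p = 0.00794, 0.00907 after adjustment over the 8 pairs), by 3.36 in arrays 1 to 6 and by 1.09 in arrays 7 to 10. The pairs of Cdkn2b and Cdkn2a with Cdkn2c are not read, since Cdkn2c lay at the floor on every array.

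**Figure D3:**
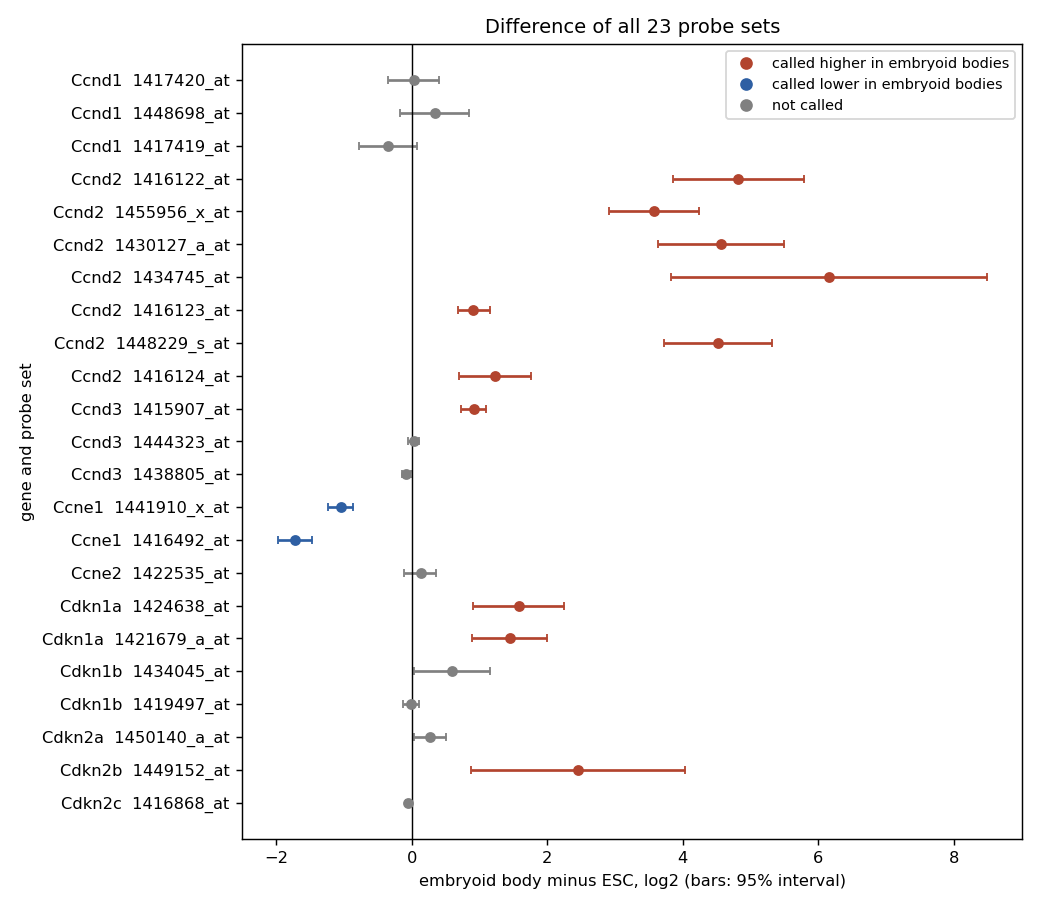
Embryoid body minus ESC difference in log2 intensity (horizontal axis) of each of the 23 probe sets (vertical axis), with 95% intervals from limma. Red points were called higher in embryoid bodies, blue ones lower and grey ones not called. Ccnd2 runs from 0.91 to 6.16, both Ccne1 probe sets lie left of 0, and the 3 Ccnd1 probe sets lie about 0.

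Several members followed the label numbers within a group. Of the 23 member probe sets, 14 read higher on both ESC arrays 8 and 10 than on both ESC arrays 2 and 6, against 12.1% of all probe sets, and 10 read higher on both embryoid body arrays 7 and 9 than on arrays 1, 3 and 5, against 15.3% of all. Both counts take in several probe sets of the same gene, such as all 3 of Ccnd1. Only 3 of the 23 lay near the floor on every array, while 49.1% to 49.9% of the values of each array did, so the shares are not strictly alike. In ESCs the step was 3.01 for Cdkn2b, 1.78 for Ccnd2 (1416122_at), 1.19 for Cdkn1a (1424638_at) and -1.02 for Cdkn1b (1434045_at). In embryoid bodies the same probe sets moved by 0.51, 0.47, 0.42 and 0.01. All 13 called probe sets kept the same sign in both number ranges. Of the 11 called higher, 8 had the larger difference in arrays 1 to 6 and 3 in arrays 7 to 10. Ccnd2 on 1416122_at differed by 5.53 in arrays 1 to 6 and by 4.22 in arrays 7 to 10 (adjusted p = 1.35e-05 and 7.46e-04), and Cdkn1a on 1424638_at by 2.0 and 1.23 (adjusted p = 9.63e-05 and 0.00508).

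**Figure D4:**
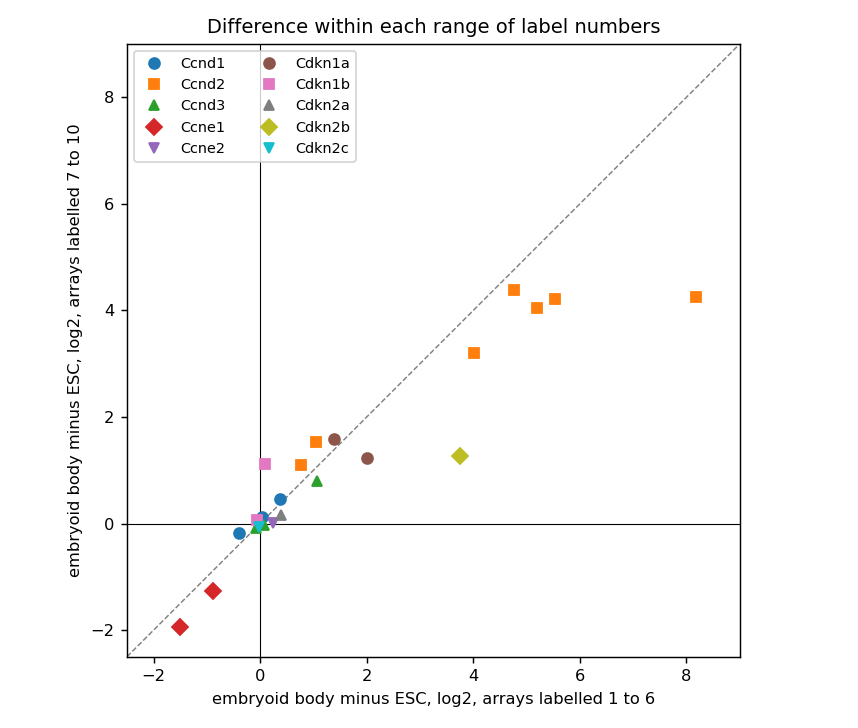
Embryoid body minus ESC difference in log2 intensity of each member probe set in arrays labelled 1 to 6 (horizontal axis) and 7 to 10 (vertical axis), with equal differences on the dashed line. Symbols mark genes. Cdkn2b (3.75 against 1.26) and the Ccnd2 probe set at 8.18 against 4.25 lie farthest below the line, and a Cdkn1b probe set (0.09 against 1.11) lies above it.

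Markers of fibroblasts moved with some of these values. The summed linear intensity of 8 fibroblast genes was 10423 to 11448 on embryoid body arrays and 323, 279, 833 and 813 on ESC arrays 2, 6, 8 and 10. Of the 8 genes, 5 read higher on both ESC arrays 8 and 10 than on arrays 2 and 6, 7 were called higher in embryoid bodies, and Thy1 lay near the floor on every array. Postn, a matrix protein of fibroblasts, was near the floor on all ESC arrays. Col1a1 read 6.98, 6.78, 9.03 and 9.02 (log2) on ESC arrays 2, 6, 8 and 10, against 10.31 to 10.57 in embryoid bodies. Col3a1 read 3.12, 3.65, 6.28 and 5.51, against 12.32 to 12.73. On ESC arrays 2, 6, 8 and 10 the fibroblast sum was 2.95%, 2.55%, 7.6% and 7.42% of its mean in embryoid bodies. That is not a share common to its genes. For Ccnd2 (1416122_at) these shares were 1.87%, 1.88%, 5.49% and 7.58%, for Cdkn2b 8.2%, 4.9%, 55.6% and 46.6%, and for Cdkn1a (1424638_at) 21.9%, 22%, 55.8% and 45.1%. Ccnd2 stepped up in the same way on 1455956_x_at (5.28%, 5.65%, 11.7% and 13.7%), 1430127_a_at (2.83%, 1.91%, 6.86% and 7.99%) and 1434745_at (0.284%, 0.285%, 6.59% and 6.62%). No such step was seen for Ccnd2 on 1416123_at (59.1%, 50.5%, 51.7% and 50.1%) and 1416124_at (38.1%, 41%, 37.7% and 46.1%). Cdkn1a on 1421679_a_at showed none either, with 47.1%, 23.1%, 42.9% and 34.8%. On 1448229_s_at Ccnd2 was high on ESC array 8 alone, with 2.67%, 3.61%, 9.92% and 3.49%. The summed intensity of the 12 pluripotency genes was 3954 to 7692 in embryoid bodies and 43814, 45303, 43779 and 41424 on ESC arrays 2, 6, 8 and 10, with 3 of these genes higher and 5 lower on both arrays 8 and 10 than on arrays 2 and 6. For the 18 genes of cell types of embryoid bodies, the sum was 8156 to 14070 in embryoid bodies. It was 872, 807, 923 and 974 on ESC arrays 2, 6, 8 and 10. Of these 18 genes, 3 were higher and 0 lower on both arrays 8 and 10 than on arrays 2 and 6, and 5 lay near the floor on all ESC arrays. The part of other cell types in the member values was not tested.

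Other regulators of the G1 pathway changed in both directions. Of 3 further CDK inhibitors, 2 were called higher in embryoid bodies. Cdkn1c, the imprinted p57 gene of the Cip/Kip family, read 10.60 to 11.26 in embryoid bodies and 8.33 to 8.56 in ESCs, a difference of 2.45 ± 0.14 (SE; adjusted p = 3.06e-06) with no step between ESC arrays like that of Cdkn2b. Cdkn2d, the p19Ink4d gene, differed by 0.95 ± 0.07 (adjusted p = 8.93e-06), so that 2 of the 4 genes of the Ink4 family were called higher. Of 9 G1 kinases and their activators, 2 were called higher and 2 lower, with Cdk4 at 0.48 ± 0.07 and Cdk6, the other partner of D-type cyclins, at -0.48 ± 0.13 (adjusted p = 7.04e-04 and 0.0294). Ccnh, the cyclin of the kinase that activates CDKs, differed by -0.34, although its 3 probe sets disagreed in direction, and the chaperone factor Cdc37 by 0.14. Cdk2 differed by 0.03 ± 0.06 and was not called. The pocket proteins Rb1, Rbl1 and Rbl2, the substrates of these kinases, were not called. Rb1 and Rbl1 differed by 0.42 and 0.34 (adjusted p = 0.0691 and 0.265), and Rbl2 lay near the floor on every array, between 3.51 and 3.67.

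Of 10 E2F and DP factors, 2 were called higher and 2 lower. E2f6 and E2f3 differed by 0.80 ± 0.10 and 0.57 ± 0.09, and E2f4 and Tfdp1 by -0.78 ± 0.22 and -0.34 ± 0.08. E2f6 and E2f3 were each called on 1 of 2 probe sets. E2f5 and Tfdp2 count as not called here, but 2 of 3 E2f5 probe sets were called higher and 2 of 4 Tfdp2 probe sets lower. Of 5 measured genes among the cyclins of S and M phase and Cdk1, 4 fell as Ccne1 did. Ccnf, Ccnb2, Ccna2 and Cdk1, the kinase that drives mitosis, differed by -1.37, -1.07, -0.95 and -0.55 (adjusted p between 2.44e-06 and 2.04e-04), and Ccna1 lay near the floor. Of 9 measured ubiquitin ligase subunits that act on G1 regulators, 1 was called higher (Cul4a, 0.40) and 3 lower. These 3 were Fbxo31, at -0.52 but about the floor in both groups (3.23 to 3.48 in embryoid bodies and 3.63 to 4.02 in ESCs), Fbxw7, which recognizes cyclin E, at -0.32, and Cks1b, a cofactor in the turnover of p27, at -0.26, while Skp2, which recognizes p27, was not called at 0.21 ± 0.08.

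Genes of the p53 response, of which Cdkn1a is one, and of pathways known to act on Cdkn2a and Cdkn2b were also counted. Of 16 measured genes of the p53 list, mostly targets of p53, 4 were called higher and 5 lower. Gadd45a, Pmaip1 and Bbc3 differed by -1.87, -1.51 and -0.83, and Btg2 by 0.95. Plk2 differed by 0.66, with overlapping groups and a call on 1 of its 2 probe sets. The other called genes were Ccng1 (0.54, with probe sets that disagreed in direction), Sesn1 (0.50), Aen (-0.54) and Sesn2 (-0.50). Of 11 genes of the TGF-β pathway and FoxO factors, 6 were called higher and 1 lower. The ligand Tgfb2 differed by 3.06 ± 0.39, Smad3 by 2.18 ± 0.21 and the receptor Tgfbr1 by 2.0 ± 0.13, and the feedback inhibitor Smad7 by -0.44 ± 0.08. Tgfb2 was called on 4 of 4 probe sets, but Smad3 and Tgfbr1 each on 1 of 3. Tgfb1, another ligand, was also called higher and read 5.64 to 6.13 in embryoid bodies, but its 3.29 to 3.87 in ESCs lay near the floor on all 4 arrays, so the size of its difference is not read. Tgfb2 read 7.87 and 7.59 on ESC arrays 8 and 10 and 6.46 and 5.73 on arrays 2 and 6. Smad3 read 7.58 and 6.98 on arrays 8 and 10 and 6.53 and 6.52 on arrays 2 and 6. No such step was seen on ESC arrays 2, 6, 8 and 10 for Tgfbr1 (8.62, 8.71, 8.77 and 8.47), Smad2 (8.03, 8.07, 8.22 and 7.99) or Smad4 (10.72, 10.61, 10.57 and 10.49). Of 10 genes known to repress the locus of Cdkn2a and Cdkn2b, 3 were called higher and 3 lower. Bmi1, a subunit of Polycomb repressive complex 1, rose by 2.27 ± 0.23, and Cbx7, another subunit of such complexes, fell by 2.44 on the log2 scale (SE 0.17). Eed and Suz12, core subunits of Polycomb repressive complex 2, differed by -1.39 and -1.19. Bmi1 was called on 2 of 2 probe sets, Cbx7 on 1 of 3, Eed on 1 of 2 and Suz12 on 4 of 6. These lists are described by their counts alone, beside the 15.7% and 14.7% of all genes given above.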

How the data were processed

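E14 ESCs (4 samples) and embryoid bodies (5 samples) were hybridized to Affymetrix Mouse 430 2.0 arrays. The deposited values are GCRMA intensities on a linear scale, for which the authors corrected background by a probe sequence model, normalized the arrays to one distribution and summarized the probes of each probe set. Whether all 9 arrays were normalized together was not given in the sources used here. The log2 of each value was taken without further normalization, and 64 control probe sets were left out. The annotation of the array gave a single symbol to 34945 of the other 45037.

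Groups were compared by limma 3.58.1 in R 4.3.3 (lmFit, eBayes with trend and robust steps, two-sided), with P values adjusted by Benjamini and Hochberg across the 45037 probe sets. The fit was run on simulated data with known changes and independent noise on each array. That simulation held no step by label number, so it does not bear on the step seen in these arrays. Changes of gene pairs were compared by exact permutation tests in Python 3.11.15. A gene was represented by its probe set of the highest mean over the 9 arrays. For some listed genes other probe sets were not called, and for some genes counted as not called another probe set was called. All member probe sets are named, and up to 4 called genes of each other list with the largest difference. Genes outside this rule (Cdk2, Rb1, Rbl1, Rbl2, E2f5, Tfdp2, Skp2, Ccna1, Plk2, Ccng1, Sesn1, Sesn2, Aen, Smad2, Smad4, Smad7, Pecam1, Col1a1, Col3a1, Postn and Thy1) were named with their values in view. The members and lists were chosen with earlier results of these data known. Promoter windows were searched for GGGCGG after the values were seen. The number of arrays limits the precision, and arrays have no read depth.

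The alternatives were quantile normalization, median centring, an offset of 16 before the log, no trend or robust step, array weights, a mean log2 of 4 or more, plain _at probe sets, a fold of at least 2, each array left out in turn, arrays 1 to 6 or 7 to 10 alone, the label number range as a block, and each gene as the mean of its probe sets.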

Additional observations from a re-analysis of the deposited data

Results flagged for a closer look

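In each of 46 sets of values (23 member probe sets in embryoid bodies and in ESCs), the highest and the lowest array were compared with the others by Dixon's ratio of gap to range. A value stood apart in 3 sets, each time on ESC array 10, and chance alone gives about 1 in 20. The Ccnd3 probe set 1438805_at read 2.66 there, against 2.56 on the next array, the Cdkn1b probe set 1419497_at read 4.06 against 4.02, and the Cdkn2c probe set 1416868_at read 1.83 against 1.73. All 3 lie about or under log2 4, and none belongs to a probe set that was called.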

How the results depend on the processing

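Of 451 values of the 23 member probe sets under 20 alternatives, 422 kept their direction and their side of the threshold, 10 gained a call, 9 lost one and 10 turned direction. All values that turned belong to probe sets that were not called. Ccnd1 1417420_at ran from -0.08 to 0.11 with each array left out, and Cdkn1b 1419497_at from -0.05 to 0.02. Cdkn1b 1419497_at differed by 0.06 in arrays 7 to 10 and by 0.01 with quantile normalization or median centring, and Ccnd3 1444323_at by -0.02 in arrays 7 to 10. Among the gained calls, the Ccnd3 probe set 1438805_at, near the floor, was called lower with median centring (-0.06, adjusted p = 0.0269) and without embryoid body array 9 (-0.09, adjusted p = 0.0475). With plain probe sets alone, 7 member probe sets were called higher and 1 lower, since fewer were tested. A fold of at least 2 was not reached by Ccnd2 1416123_at (0.91) and Ccnd3 1415907_at (0.92), and with 16 added to each intensity Ccnd2 1434745_at differed by 5.13.

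Over all probe sets, 4729 were called higher and 4778 lower. A fold of at least 2 left 1736 and 1104. Calls of lower probe sets numbered 12834 with array weights, 7272 with median centring, 3122 in arrays 7 to 10, 2997 with plain probe sets, and 4088 to 12735 with each array left out, the highest without embryoid body array 9. The cause was not tested. No paired analysis was made, since the labels do not say whether arrays of the groups were paired.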
